A study of Mus musculus with 12 samples.

Results

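The 30 genes described here encode the enzymes that make cholesterol and fatty acids and the proteins that control them. They were taken as a named list and matched by symbol to the gene identifiers of the count table. All 30 were found among its 52962 identifiers, and all 30 passed the filter on low counts, which kept 15598 genes. Of these genes, 18 encode enzymes of sterol synthesis, 5 encode regulators or a sterol transport protein, and 7 encode enzymes of fatty acid synthesis. The list was chosen from the age comparison in β-cells, in which Mvd had already been seen among the largest differences, and with the difference between the age changes of β- and non-β-cells known. Both age comparisons, their difference and the fraction differences at each age are therefore given for these genes as a description, with no p-value. The difference between β- and non-β-cells averaged over both ages is orthogonal, in this balanced design, to both age comparisons and to the difference between them, though not to the fraction differences at each age, of which it is the mean. It is the comparison that was tested. It still includes the β levels at the later age, so a drop in β-cells with age also lowers this average. A lower call is therefore not separate from the age change for which the genes were chosen.

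RNA was sequenced from sorted islet cells of NOD mice, an inbred strain in which the immune system destroys the insulin-producing β-cells. Per the study's methods the mice were female NOD/ShiLtJ on a chow diet, their islets were cultured overnight before dispersal, and the cells were sorted by endogenous fluorescence after CD45-positive leukocytes had been set aside. Each of the 2 fractions, β and non-β, was taken from mice of 4 and of 8 weeks of age, with 3 samples in each of the 4 groups. The labels and methods give no transgene, induced mutation or treatment for any group. The study chose 4 weeks for an early, innate phase of islet infiltration and 8 weeks for a later one, so age, time after weaning and stage of infiltration cannot be told apart. Each sample was a pool of 3 mice per the methods, which the sample labels do not state, and p-values measure only the spread between these samples.

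Total estimated counts ranged from 13755106 to 27040652 per sample. The fractions carried the hormone transcripts of their labels. The summed level of 6 β-cell markers was between 31790 and 58220 CPM (estimated counts scaled to a common library size, with TMM factors) in β samples at 4 weeks and between 87390 and 92150 at 8 weeks, against 599.8 to 961.5 and 2104 to 2506 in non-β samples. The 5 α-cell markers summed to between 105900 and 135600 CPM in non-β samples. In β samples the same sum was 5619 to 9401 CPM at 4 weeks and 1518 to 2571 at 8 weeks, and the level of Gcg, the glucagon gene, was 6.36% and 1.62% of that in non-β samples. Ptprc, which encodes CD45, was at most 0.79 CPM in any sample. Of the 4-week samples, those numbered 3 were unlike the rest of their groups, in these genes as well: all 7 fatty acid synthesis genes were lowest in replicate 3 of the non-β group and 6 of 7 in replicate 3 of the β group, whereas 10 and 14 of the 18 sterol enzymes were highest there. Values without both samples are given where a result rests on them. In bulk samples of this kind, fewer cells of a type and less RNA per cell cannot be told apart.

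Cells make cholesterol from acetyl-CoA through the mevalonate pathway, and they make fatty acids from the same acetyl-CoA through malonyl-CoA. Both pathways are controlled by membrane-bound transcription factors, the SREBP proteins encoded by Srebf1 and Srebf2. When sterols in the endoplasmic reticulum are low, the escort protein SCAP carries them to the Golgi, where they are cut and freed to enter the nucleus, and when sterols are high, INSIG proteins hold SCAP back. In β-cells, cholesterol of the plasma membrane and of the secretory granules is known to affect insulin release, and insulin is a known inducer of Srebf1 in liver.

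The SREBP proteins act with the factors NF-Y and Sp1 at promoters, so the bases before the start of 6 genes are shown: Mvd and Insig1, which had the largest age differences of their classes in β-cells, Fasn, with the largest among the fatty acid genes that had a promoter entry, Hsd17b7 and Acly, which were not lower at 8 weeks, and Hmgcs1, which held the only match to the sterol regulatory element searched for. Each line gives the 250 bases before the RefSeq start, 5′ to 3′ on the strand of the gene, from GRCm38.p6. They lie at chr8:122443423-122443672, minus strand (Mvd), chr13:119690101-119690350, plus strand (Hmgcs1), chr1:169969206-169969455, minus strand (Hsd17b7), chr5:28071162-28071411, plus strand (Insig1), chr11:120824548-120824797, minus strand (Fasn) and chr11:100528001-100528250, minus strand (Acly). Capitals mark CCAAT, the NF-Y box, read on either strand (ATTGG on the other), and TCACNCCAC, the letters of a sterol regulatory element.
Mvd: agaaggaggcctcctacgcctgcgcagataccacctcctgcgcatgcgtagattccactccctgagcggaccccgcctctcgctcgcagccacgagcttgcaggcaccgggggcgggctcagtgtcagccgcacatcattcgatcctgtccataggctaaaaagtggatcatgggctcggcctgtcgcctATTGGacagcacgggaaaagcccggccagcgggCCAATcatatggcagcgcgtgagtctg
Hmgcs1: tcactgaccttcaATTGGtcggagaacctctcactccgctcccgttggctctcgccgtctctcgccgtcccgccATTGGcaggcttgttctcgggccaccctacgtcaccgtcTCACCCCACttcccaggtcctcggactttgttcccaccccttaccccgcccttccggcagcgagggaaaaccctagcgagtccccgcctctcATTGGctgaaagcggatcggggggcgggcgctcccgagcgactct
Hsd17b7: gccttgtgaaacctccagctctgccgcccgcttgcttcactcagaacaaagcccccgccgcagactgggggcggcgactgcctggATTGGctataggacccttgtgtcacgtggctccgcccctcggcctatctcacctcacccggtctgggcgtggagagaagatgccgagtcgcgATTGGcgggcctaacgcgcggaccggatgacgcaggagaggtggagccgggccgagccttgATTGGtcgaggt
Insig1: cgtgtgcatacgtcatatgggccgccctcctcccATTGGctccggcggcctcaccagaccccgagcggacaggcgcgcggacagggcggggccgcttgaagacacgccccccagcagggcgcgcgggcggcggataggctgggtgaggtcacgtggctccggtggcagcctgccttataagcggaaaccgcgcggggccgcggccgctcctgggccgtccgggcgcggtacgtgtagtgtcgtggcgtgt
Fasn: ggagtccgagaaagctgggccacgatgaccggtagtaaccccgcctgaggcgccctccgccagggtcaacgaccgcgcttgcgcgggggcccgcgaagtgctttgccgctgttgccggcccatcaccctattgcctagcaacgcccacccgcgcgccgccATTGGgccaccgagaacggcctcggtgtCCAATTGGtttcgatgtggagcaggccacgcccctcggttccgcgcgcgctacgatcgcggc
Acly: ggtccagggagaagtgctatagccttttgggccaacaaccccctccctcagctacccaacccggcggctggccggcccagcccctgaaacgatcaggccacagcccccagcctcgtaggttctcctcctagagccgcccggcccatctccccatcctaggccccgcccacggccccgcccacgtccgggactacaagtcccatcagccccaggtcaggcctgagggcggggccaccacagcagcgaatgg

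RefSeq promoter entries were given for 24 of the 30 genes, 30 entries in all. TCACNCCAC, searched on both strands, was present in 1 of these 30 entries, that of Hmgcs1, where it begins 137 bases before the start, and in 1.05% of all 32851 promoter windows of this length. CCAAT was present in 20 of the 30 entries and in 33.8% of all windows (34.8% of the windows of tested genes). By class it was present in 14 of 18 entries of the sterol enzymes, in 4 of 7 of the regulators and in 2 of 5 of the fatty acid genes. The Sp1 letters GGGCGG were present in 22 of 30 entries, against 32.7% of all windows and 55.9% of those of tested genes. Hsd17b7, whose level did not follow the other sterol enzymes, held CCAAT 3 times, as often as Hmgcs1 and Fasn, where 2 of the matches overlap. Acly held no CCAAT and 4 GGGCGG. These matches are descriptions of the letters in a short window and not of a factor bound there.

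Across the 4 groups, β-cells at 8 weeks had the lowest levels of most of these genes. In 19 of the 30, including 14 of 18 sterol enzymes, 3 of 5 regulators (Insig1, Stard4 and Srebf2) and 2 of 7 fatty acid genes (Fasn and Scd1), all 3 β samples at 8 weeks were below all 9 other samples, as in 4.8% of all tested genes. The 4 genes Sqle, Acss2, Elovl6 and Scd2 were instead lowest in non-β-cells at 8 weeks, as were 6.89% of all tested genes. The choice of the genes used these differences, and nothing is read from the shares. Acly was the exception in the other direction, with its highest levels in β-cells at 8 weeks.

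**Figure D1:**
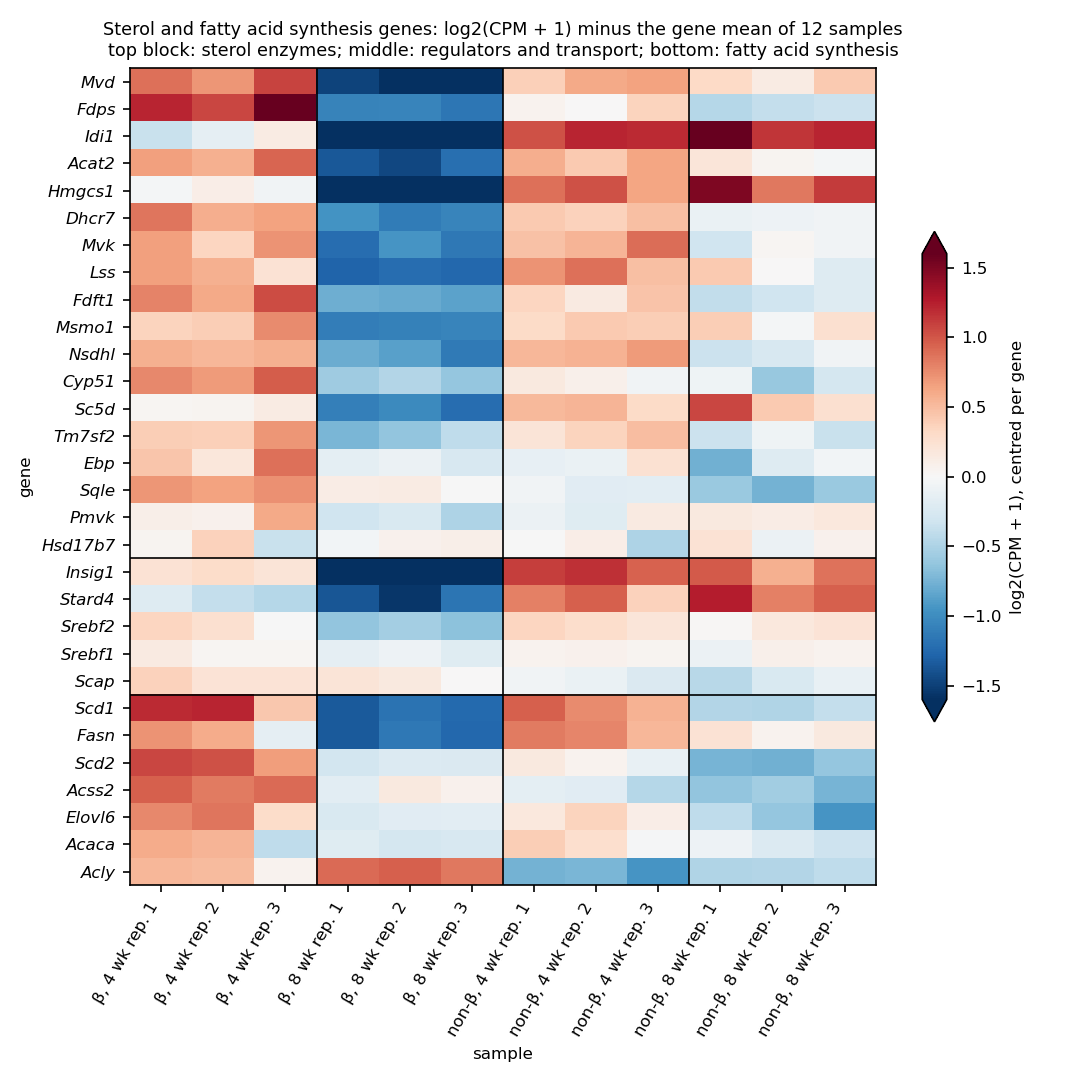
Heat map of the 30 genes (rows, in 3 blocks by class and by their age difference in β-cells) in the 12 samples (columns). Colour gives log2(CPM + 1) minus the mean of that gene over the 12 samples, cut at ±1.6. The β samples at 8 weeks form the blue block in most sterol enzymes. Sqle, Hsd17b7, Scap and Acly do not follow it, and Srebf1 is nearly level.

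In β-cells 25 of the 30 genes were past the threshold (adjusted p under 0.05 over all tested genes) with a lower level at 8 weeks, and 1, Acly, with a higher level. Over all 15598 tested genes 9.35% were lower and 8.59% higher at 8 weeks in β-cells, but the choice of the genes used this comparison and nothing is read from the difference between these shares. All 17 sterol enzymes other than Hsd17b7 were among the 25, with a median log2 change of -1.61 over the 18. The 7 fatty acid genes had a median of -0.89 and the 5 regulators a median of -0.81, and the median over all tested genes was 0.02. In non-β-cells the median was -0.43 for the sterol enzymes, -0.14 for the regulators and -0.57 for the fatty acid genes.

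Gene positions below are from the GENCODE M21 annotation of GRCm38. Among the early enzymes, Mvd (ENSMUSG00000006517, chr8:122433601-122443422, minus strand), which decarboxylates mevalonate diphosphate in an early step common to sterols and other isoprenoids, had the largest difference. Its level was 69.0, 61.1 and 79.3 CPM in replicates 1, 2 and 3 of the 4-week β group and 12.7, 8.4 and 10.8 CPM in the 8-week β group. In non-β-cells it was 48.4, 57.2 and 58.5 CPM at 4 weeks and 46.4, 40.8 and 50.0 CPM at 8 weeks. The β groups were far apart and the non-β groups overlapped, so that Mvd was highest in the 4-week and lowest in the 8-week β samples. The mean was 6.56-fold higher at 4 than at 8 weeks in β-cells, with a log2 change of -2.74 ± 0.17 (SE), against -0.25 ± 0.14 in non-β-cells.

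Idi1 (ENSMUSG00000058258, chr13:8885501-8892451, plus strand), the isomerase that makes dimethylallyl diphosphate, differed from Mvd in its level in non-β-cells. Its levels were 126, 147 and 177 CPM in the 4-week β samples and 31.9, 28.6 and 31.4 CPM in the 8-week β samples, but 328, 378 and 370 CPM in the 4-week non-β samples and 509, 360 and 378 CPM in the 8-week non-β samples. All non-β samples were above all β samples. The log2 age change was -2.28 ± 0.16 in the β and 0.20 ± 0.15 in the non-β fraction. The highest value, 509 CPM, came from non-β replicate 1 at 8 weeks. That sample also had the highest marker sums of its group for endothelial (711 CPM), acinar (385) and duct cells (53.1). Its sums for α-cell (113100) and mesenchymal markers (502) were the lowest of the group. Whether any of these bear on Idi1 was not tested.

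Hmgcs1 (ENSMUSG00000093930, chr13:119690379-119708260, plus strand), the synthase that makes HMG-CoA, had the same pattern as Idi1. It was at 277, 305 and 271 CPM in the 4-week β samples and 80.0, 68.2 and 63.3 CPM in the 8-week β samples, a log2 change of -2.02 ± 0.16. In non-β-cells it was at 524, 572 and 437 CPM at 4 weeks and 802, 507 and 616 CPM at 8 weeks, a log2 change of 0.31 ± 0.16. The 8-week non-β samples overlapped the 4-week ones, and again replicate 1 was the highest.

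Fdps (ENSMUSG00000059743, chr3:89093588-89101959, minus strand) makes farnesyl diphosphate, the branch point toward sterols, ubiquinone, dolichol and prenylated proteins. Its level in β-cells was 848, 767 and 1238 CPM at 4 weeks and 173, 174 and 162 CPM at 8 weeks. The non-β values were 379, 366 and 468 CPM at 4 weeks and 264, 279 and 287 CPM at 8 weeks. At 4 weeks every β sample was above every non-β sample and at 8 weeks every β sample was below. The log2 age change was -2.45 ± 0.15 in the β and -0.54 ± 0.15 in the non-β fraction.

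Acat2 (ENSMUSG00000023832, chr17:12942890-12960747, minus strand), the cytosolic thiolase that makes acetoacetyl-CoA, was at 66.5, 62.5 and 80.7 CPM in the 4-week β samples and at 15.7, 14.6 and 17.5 CPM in the 8-week β samples. The non-β samples had 62.9, 56.0 and 65.0 CPM at 4 weeks and 47.7, 42.9 and 40.9 CPM at 8 weeks. The ages did not overlap in either fraction, with log2 changes of -2.12 ± 0.14 and -0.48 ± 0.12. The 4-week levels of the fractions overlapped and the 8-week levels did not.

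The other enzymes of the mevalonate and squalene steps had smaller age differences in β-cells. Mvk and Pmvk phosphorylate mevalonate in turn, and their log2 changes in β-cells were -1.77 ± 0.19 and -0.61 ± 0.15. Fdft1, squalene synthase, was at 460 ± 70.2 CPM (SD, n = 3) at 4 weeks and 147 ± 4.25 at 8 weeks in β-cells, a log2 change of -1.63 ± 0.12. Sqle, squalene epoxidase and a rate-limiting enzyme of the pathway, had a smaller difference, from 469 ± 16.2 to 307 ± 16.2 CPM in β-cells and from 264 ± 12.9 to 184 ± 11.5 CPM in non-β-cells. Its log2 changes were -0.61 ± 0.09 and -0.52 ± 0.09, with a difference between them of -0.09 ± 0.13.

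After squalene, lanosterol is formed by Lss and turned into cholesterol by a chain of demethylases, reductases and isomerases. In β-cells the log2 changes of the chain were -1.75 for Lss, -1.36 for Cyp51 (the 14α-demethylase), -1.16 for Tm7sf2 (a sterol reductase), -1.59 for Msmo1 and -1.53 for Nsdhl (C4 demethylation), -0.68 for Ebp (an isomerase), -1.21 for Sc5d (a desaturase) and -1.77 for Dhcr7 (a reductase of the last steps), with SEs between 0.10 and 0.20. In these 8 genes the β samples at 8 weeks did not overlap those at 4 weeks. In non-β-cells Msmo1, Ebp and Sc5d overlapped between the ages, and the other 5 were lower at 8 weeks without overlap. Reads of Fdft1, Lss, Cyp51 and Tm7sf2, as those of Srebf1 and Acss2 below, may be shared with genes that overlap them. Annotated genes also overlap Mvd, Hmgcs1, Idi1, Fdps, Srebf2, Scap, Acly, Acaca, Elovl6 and Scd2, so the same limit may apply to these. In all these cases the overlap is of whole gene intervals on either strand. Whether the transcripts share sequence was not checked. Hsd17b7, a ketosteroid reductase that acts in the same C4 demethylation as Msmo1 and Nsdhl, did not follow them. It was at 48.8, 61.6 and 36.7 CPM in the 4-week β samples and at 46.0, 49.8 and 50.3 CPM in the 8-week β samples, a log2 change of 0.02 ± 0.19, and its groups overlapped in both fractions.

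Of the regulators, Insig1 (ENSMUSG00000045294, chr5:28071363-28078662, plus strand), which holds SCAP and is itself a target of SREBP, had the pattern of the enzymes. It was at 448, 465 and 438 CPM in the 4-week β samples and at 88.4, 85.4 and 86.3 CPM in the 8-week β samples. The non-β samples had 819, 860 and 734 CPM at 4 weeks and 751, 567 and 694 CPM at 8 weeks. Every β sample was below every non-β sample, and only the β groups were apart between the ages. The log2 age change was -2.38 ± 0.11 in the β and -0.27 ± 0.11 in the non-β fraction.

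Stard4 carries cholesterol between membranes and is also known as an SREBP target. It was at 58.8, 52.2 and 49.5 CPM in the 4-week β samples and 25.8, 22.5 and 29.8 CPM in the 8-week β samples, a log2 change of -1.05 ± 0.18. The non-β levels were 120, 133 and 88.7 CPM at 4 weeks and 164, 120 and 134 CPM at 8 weeks, where the ages overlapped.

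The genes of the SREBP proteins themselves had smaller differences. Srebf2, whose product mainly drives sterol genes, was at 364, 342 and 285 CPM in the 4-week β samples and 184, 196 and 182 CPM in the 8-week β samples, a log2 change of -0.81 ± 0.11. Non-β levels were 362, 349 and 329 CPM and then 290.5, 323 and 332 CPM, with overlapping ages. Srebf1, whose product mainly drives fatty acid genes, was at 134, 125 and 124 CPM in the 4-week β samples and at 110, 115 and 107 CPM in the 8-week β samples, which did not overlap, but its log2 change of -0.21 ± 0.09 was not past the threshold. The non-β samples stayed between 114 and 129 CPM at both ages. Scap had log2 changes of -0.15 ± 0.11 in the β and -0.14 ± 0.11 in the non-β fraction, and neither was past the threshold, although its β groups did not overlap.

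**Figure D2:**
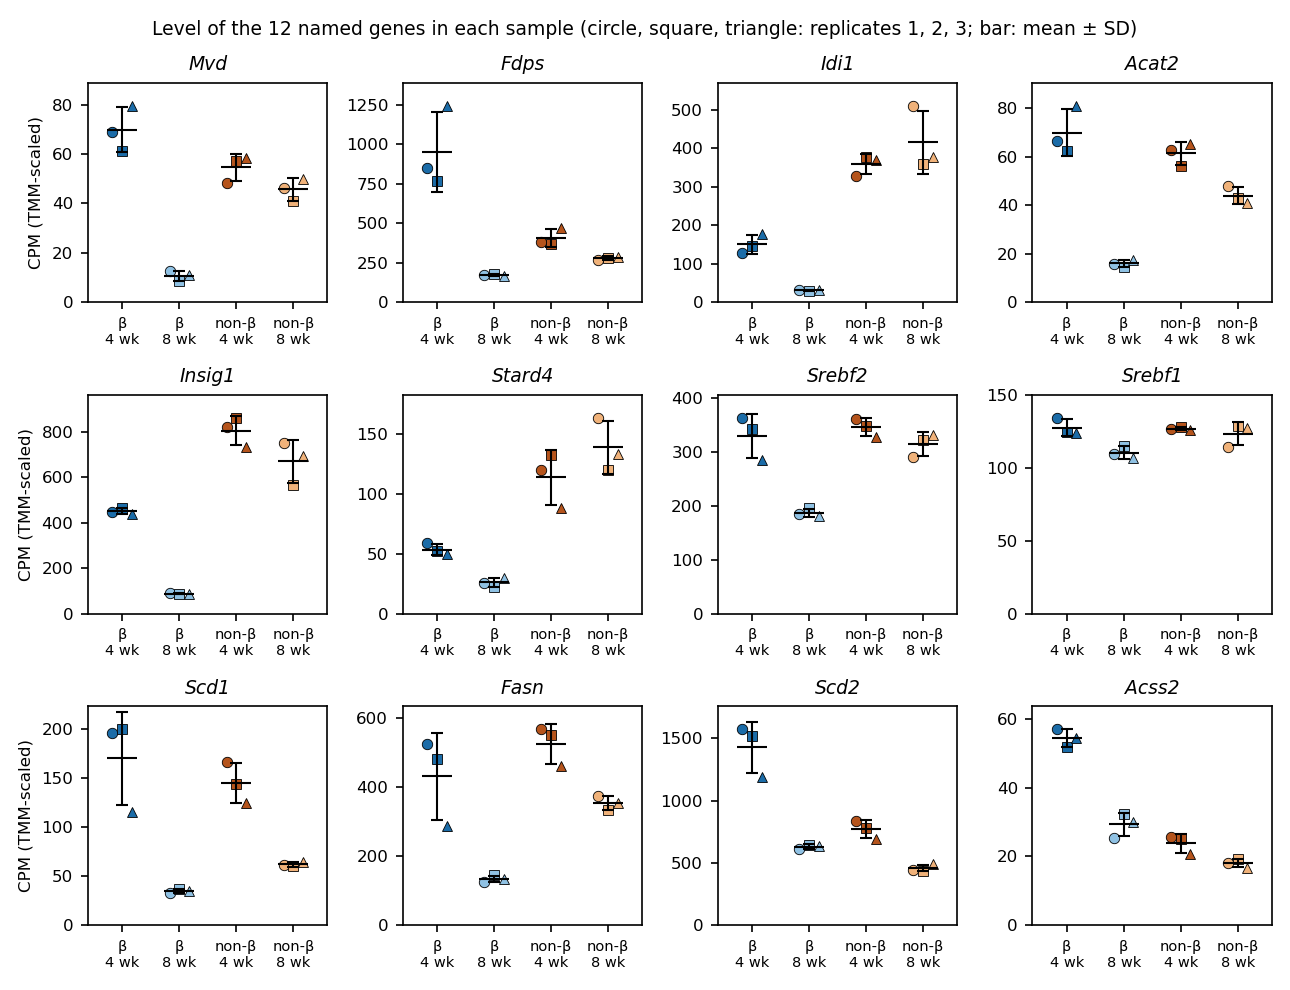
Level (CPM, axes from 0) of 12 genes in each of the 12 samples, by group; circles, squares and triangles are replicates 1, 2 and 3, and bars give the mean ± SD. The 4 sterol enzymes and Insig1 are lowest in β-cells at 8 weeks, Srebf1 is nearly level, and in the fatty acid genes other than Acss2 the 4-week replicates 3 lie below the other 4-week samples.

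In the fatty acid arm, 5 of 7 genes in β and 6 of 7 in non-β samples were lower at 8 weeks with no overlap between the ages, a criterion that 19.6% and 13.8% of all tested genes met. Scd1 (ENSMUSG00000037071, chr19:44394455-44407879, minus strand), a stearoyl-CoA desaturase that makes oleate, was at 195, 199 and 115 CPM in the 4-week β samples and at 32.6, 36.8 and 35.1 CPM in the 8-week β samples. The non-β samples had 166, 144 and 124 CPM at 4 weeks and 60.7, 60.1 and 64.6 CPM at 8 weeks. No group overlapped the other age, and the log2 changes were -2.24 ± 0.19 and -1.22 ± 0.19. Scd2, its close paralog, had 375 CPM per kb of mean transcript length in the 4-week β samples, where Scd1 had 86.1. It was at 1572, 1522 and 1193 CPM in the 4-week β samples and 612, 642 and 638 CPM in the 8-week β samples. Its log2 changes were -1.17 ± 0.12 in the β and -0.75 ± 0.12 in the non-β fraction, where the levels were 835, 780 and 690 and then 446, 438 and 488 CPM. Counts of Scd1 and Scd2 may be divided between the paralogs by the counting method.

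Fasn (ENSMUSG00000025153, chr11:120805846-120824547, minus strand), the fatty acid synthase, was at 524, 481 and 287 CPM in the 4-week β samples and at 125, 144 and 133 CPM in the 8-week β samples, a log2 change of -1.64 ± 0.18. In non-β-cells it was at 566, 549 and 459 CPM at 4 weeks and at 374, 332 and 354 CPM at 8 weeks, a log2 change of -0.57 ± 0.18 whose call was lost in 13 of 21 alternatives. Elovl6, which lengthens palmitate, had nearly equal log2 changes of -0.85 ± 0.16 and -0.88 ± 0.17 in β- and non-β-cells. Acaca, the acetyl-CoA carboxylase of the committed step, was at 137, 132 and 67.9 CPM in the 4-week β samples and at 78.8, 74.0 and 75.6 CPM in the 8-week β samples. Replicate 3 alone made the ages overlap, and the log2 change was -0.49 ± 0.22 with it and -0.82 without both 4-week replicates 3, where it was past the threshold. Without these samples Fasn had a log2 change of -1.91 and Scd1 one of -2.5 in β-cells, and the median of the fatty acid genes was -1.03 in place of -0.89.

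The genes that supply acetyl-CoA differed from each other. Acly (ENSMUSG00000020917, chr11:100476353-100528000, minus strand), the citrate lyase that makes cytosolic acetyl-CoA from citrate, was at 3127, 3076 and 2256 CPM in the 4-week β samples and at 4055, 4193 and 3883 CPM in the 8-week β samples. In non-β-cells it was at 1281, 1300 and 1124 CPM at 4 weeks and at 1551, 1559 and 1636 CPM at 8 weeks, again with no overlap. It was the only one of the 30 genes with higher levels at 8 weeks and no overlap in the β fraction, with log2 changes of 0.54 ± 0.12 in the β and 0.36 ± 0.12 in the non-β fraction. Acss2, which makes acetyl-CoA from acetate, was at 57.0, 51.8 and 54.6 CPM in the 4-week β samples and at 25.4, 32.3 and 30.1 CPM in the 8-week β samples, a log2 change of -0.89 ± 0.12. In non-β-cells its levels of 25.7, 25.2 and 20.7 CPM at 4 weeks and 18.1, 19.2 and 16.8 CPM at 8 weeks also did not overlap, and the log2 change was -0.41 ± 0.14.

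Read per kilobase of mean transcript length, which allows levels to be compared between genes, Acly was the most abundant of the 30 in β-cells at 4 weeks (1180 CPM per kb), followed by Fdps (810) and Scd2 (375). At 8 weeks Acly was at 1700 CPM per kb and Scd2 at 166, and Fdps was at 145. In non-β-cells at 8 weeks Acly (664), Insig1 (388), Idi1 (355) and Hmgcs1 (291) were the highest. With the longest transcript as the length, Idi1 was at 137 CPM per kb and Hmgcs1 at 185, so that the order of these genes depended on the length used.

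Set side by side, 27 of the 30 genes in β and 16 in non-β samples were lower at 8 weeks with no overlap between the ages, beside 19.6% and 13.8% of all tested genes, and the 2 genes that overlapped in β-cells were Hsd17b7 and Acaca. In non-β-cells 13 genes were past the threshold with a lower level at 8 weeks and none with a higher level, where 4.8% and 11.6% of all tested genes were. Those 13 were 9 sterol enzymes and 4 fatty acid genes, and no regulator was among them. The count of lower genes was 8 without non-β replicate 3 at 8 weeks and 17 without both 4-week replicates 3. Without both 4-week replicates 3, Acly and Pmvk were past the threshold with a higher level. Subtracting the non-β from the β age change gave a value that was past the threshold and negative in 19 of the 30 genes, namely 14 sterol enzymes, 3 regulators (Insig1, Stard4 and Srebf2) and 2 fatty acid genes (Fasn and Scd1). It was not past it with a positive sign in any, and over all tested genes 3.33% were negative and 1.8% positive. The difference was between -2.49 (Mvd) and 0.18 (Acly). Both age comparisons and their difference had been seen when the genes were chosen.

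**Figure D3:**
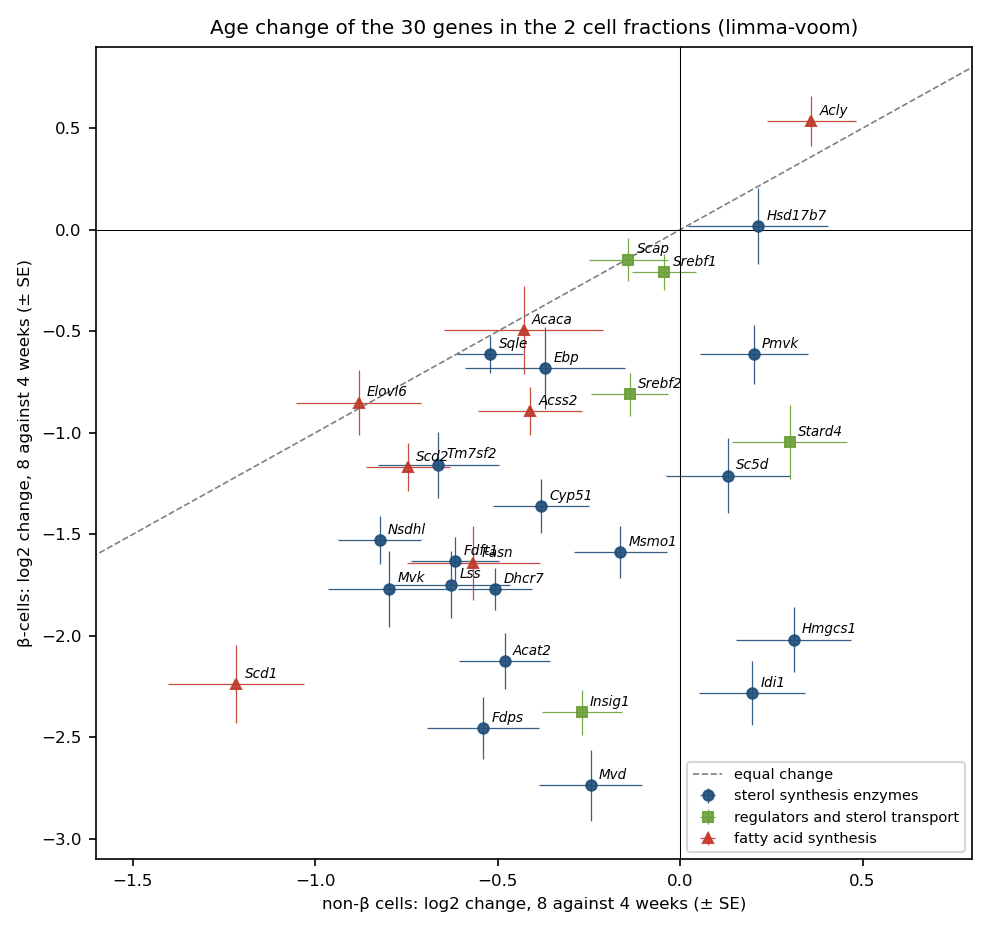
Log2 change from 4 to 8 weeks in β-cells (vertical) against non-β-cells (horizontal) for the 30 genes, with SE bars from limma-voom, coloured by class; the dashed line marks an equal change. Mvd, Idi1, Hmgcs1, Fdps and Insig1 lie far below the line, whereas Sqle, Elovl6, Acaca and Scap lie near it.

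Sterol and fatty acid genes were compared within each sample by their mean log2 CPM, centred on the 12 samples. The mean of the 18 sterol enzymes was 0.53 ± 0.11 (SD, n = 3) in the 4-week and -0.99 ± 0.03 in the 8-week β samples, and 0.39 ± 0.03 and 0.07 ± 0.07 in non-β-cells. The mean of the 7 fatty acid genes was 0.64 ± 0.32 and -0.33 ± 0.06 in β-cells and 0.12 ± 0.15 and -0.43 ± 0.05 in non-β-cells. Both class means were lower at 8 weeks in either fraction, and these values, too, were in view when the genes were chosen. The sterol mean minus the fatty acid mean was -0.57, -0.71 and -0.69 in the 8-week β samples and 0.52, 0.44 and 0.55 in the 8-week non-β samples. In β-cells at 4 weeks it was -0.35, -0.37 and 0.39, so that replicate 3 was on the other side of 0 from its group. In non-β-cells at 4 weeks it was 0.13, 0.20 and 0.47, with replicate 3 again the highest.

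**Figure D4:**
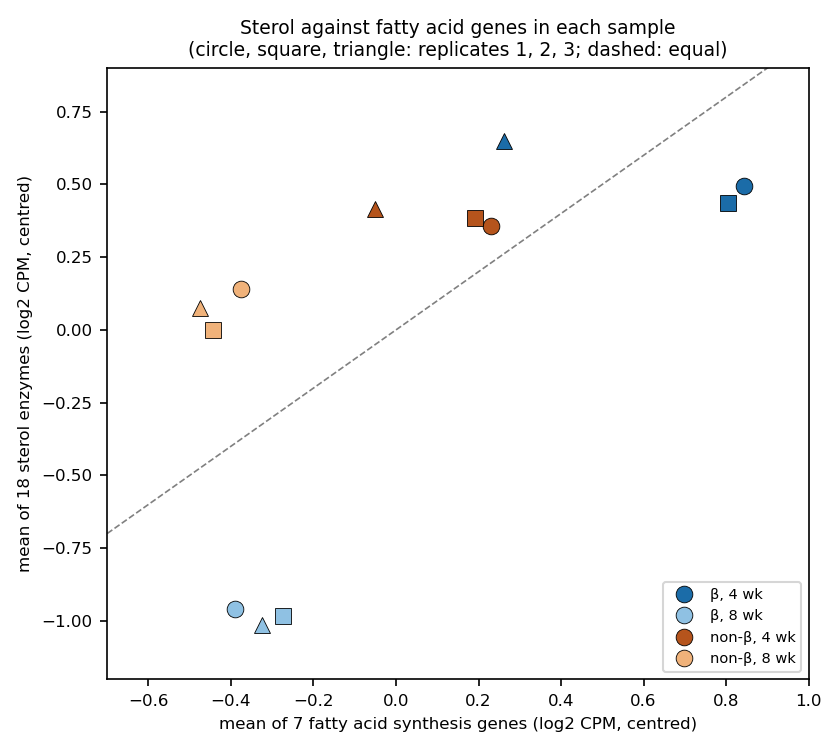
Mean centred log2 CPM of the 18 sterol enzymes (vertical) against that of the 7 fatty acid genes (horizontal), 1 point per sample, coloured by group; the dashed line marks equal values. The 3 β samples at 8 weeks lie together at the bottom of the sterol axis, and the 4-week β replicate 3 (triangle) lies left of replicates 1 and 2.

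The comparison that was tested was the level in β- against non-β-cells, averaged over both ages. It includes the β samples at 8 weeks, whose low levels were in view when the genes were chosen. Calls of lower levels can therefore restate the age change in β-cells. At 4 weeks all β samples were below all non-β samples in 5 of the 30 genes and above them in 10. At 8 weeks they were below in 19 and above in 6. The shares of all tested genes that met these criteria within 1 age were not computed, so nothing is read from these counts. Of the 30 genes, 14 were lower in β-cells (limma-voom, adjusted p under 0.05), 7 were higher and 9 were not past the threshold. Of all tested genes 31.5% were lower and 31% were higher. Per class, 10 of the 18 sterol enzymes were lower and 2 higher, 3 of the 5 regulators were lower and 1 higher, and 1 of the 7 fatty acid genes was lower and 4 were higher. The median log2 difference was -0.37 in the sterol enzymes, -0.41 in the regulators and 0.45 in the fatty acid genes, against 0.00 over all tested genes. Without the acetyl-CoA suppliers Acly and Acss2, the other 5 fatty acid genes had a median of -0.01, with 2 higher and 1 lower, and their median age change in β-cells was -1.17. At 4 weeks alone the median log2 difference between the fractions was 0.17 for the sterol enzymes, -0.08 for the regulators and 0.43 for the 7 fatty acid genes. At 8 weeks alone it was -0.86, -0.75 and 0.46. The sterol median was thus below 0 only at 8 weeks.

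Idi1 and Hmgcs1 were furthest below their non-β levels, with limma-voom log2 differences of -2.51 ± 0.11 (SE, adjusted p = 5.52e-10) and -2.0 ± 0.11 (adjusted p = 7.61e-09). Insig1 followed with -1.89 ± 0.08 (limma-voom, adjusted p = 3.81e-10), Stard4 with -1.75 ± 0.12 (adjusted p = 5.6e-08) and Sc5d with -1.07 ± 0.13 (adjusted p = 9.04e-06). In these 5 genes all 6 β samples were below all 6 non-β samples, as in 15.7% of all tested genes. Mvd (-0.90 ± 0.11, limma-voom, adjusted p = 1.54e-05), Fasn (-0.86 ± 0.13, adjusted p = 7.11e-05) and Acat2 (-0.64 ± 0.09, adjusted p = 5.55e-05) were lower on average, with most of the difference at 8 weeks. Their log2 differences at 4 weeks were 0.35, -0.33 and 0.18, and at 8 weeks -2.14, -1.40 and -1.46. Lss, Msmo1, Mvk, Srebf2, Nsdhl and Dhcr7 were the other genes that were lower, by log2 differences between -0.77 and -0.36.

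Higher in β-cells were Acly (log2 difference 1.27 ± 0.09, limma-voom, adjusted p = 5.6e-08), Acss2 (0.95 ± 0.09, adjusted p = 1.57e-06), Sqle (0.78 ± 0.06, adjusted p = 2.71e-07), Scd2 (0.68 ± 0.08, adjusted p = 1.16e-05), Elovl6 (0.45 ± 0.12, adjusted p = 0.00481), Scap (0.40 ± 0.08, adjusted p = 0.000555) and Cyp51 (0.25 ± 0.09, adjusted p = 0.0297). For Acly, Sqle and Scap every β sample was above every non-β sample, which held for 15.7% of all tested genes. Cyp51 had log2 differences of 0.74 at 4 weeks and -0.24 at 8 weeks, and it lost the call in 6 of 21 alternatives. Fdps had a mean log2 difference of 0.25 ± 0.11 (limma-voom, adjusted p = 0.0579), made of 1.21 at 4 weeks and -0.70 at 8 weeks. Srebf1, Acaca, Fdft1, Hsd17b7, Tm7sf2 and Pmvk had log2 differences between -0.10 and 0.06, Scd1 had -0.32 ± 0.13 (limma-voom, adjusted p = 0.0554) and Ebp 0.36 ± 0.15 (adjusted p = 0.0515). Fdps, Scd1 and Ebp passed the threshold in 6, 8 and 7 of 21 alternatives, among them the one without both 4-week replicates 3. Of the 21 genes past the threshold, 5 (Acat2, Mvd, Msmo1, Dhcr7 and Cyp51) had opposite signs at the 2 ages.

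**Figure D5:**
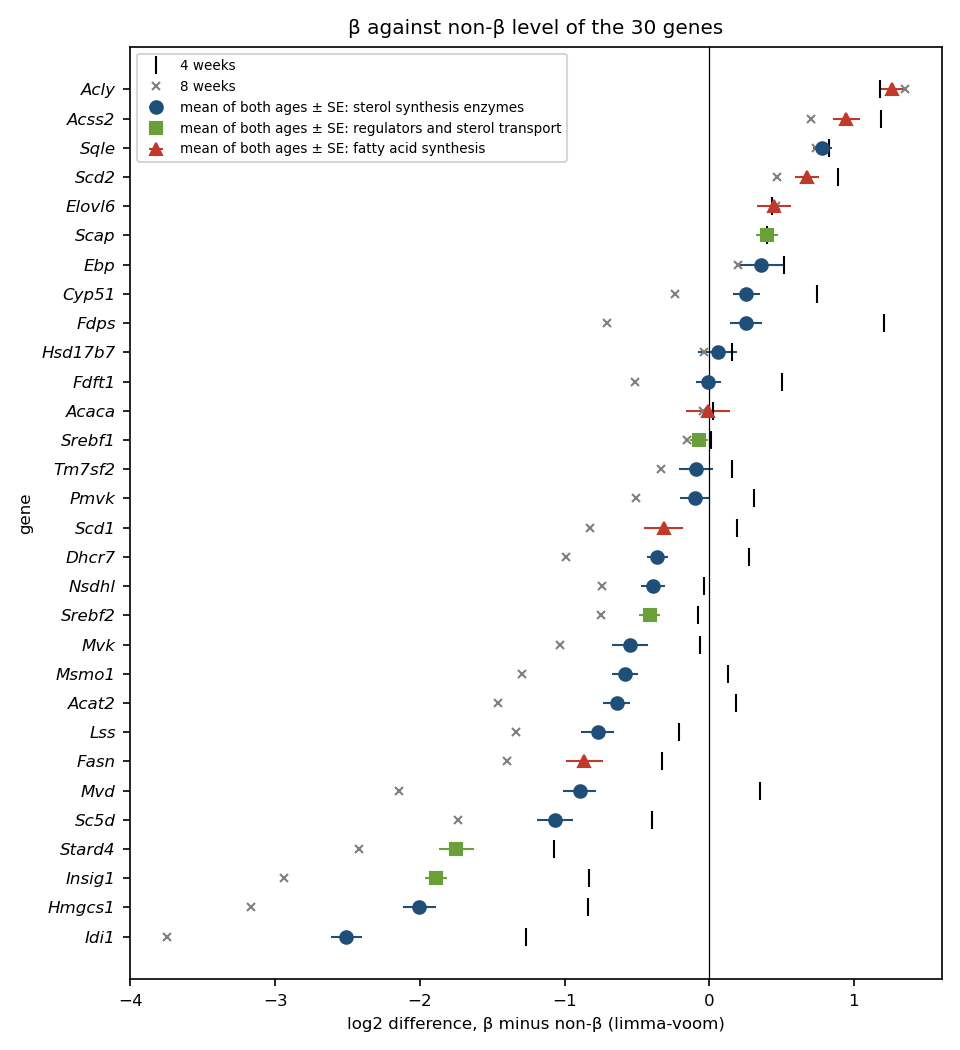
Log2 difference between β- and non-β-cells for the 30 genes, ordered by the mean over both ages (coloured symbols by class, with SE bars); vertical ticks give the difference at 4 weeks and crosses that at 8 weeks. Idi1, Hmgcs1, Insig1, Stard4 and Sc5d lie below 0 at both ages, Acly, Acss2, Sqle, Scd2, Elovl6 and Scap above 0 at both, and for Mvd, Fdps and Dhcr7 the tick and the cross lie on opposite sides of 0.

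The rest of the pathway was followed in 62 further genes in 5 lists, of which 60 were tested. In β-cells 16 of the 60 were lower at 8 weeks and 5 higher, and in non-β-cells 8 were lower and 1 higher, beside the shares of all tested genes given above. The median log2 change was -0.10 in either fraction. Averaged over ages 32 of the 60 were higher and 6 lower in β- than in non-β-cells, beside 31% and 31.5% of all tested genes. The same shares stand beside the counts of the single lists below, and nothing is read from those counts. The lists were chosen with earlier results of these data known, and most genes named below were picked by their changes. The p-values printed for them are therefore a description and not independent tests of a change with age or between fractions.

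Among the genes that process the SREBP proteins or take part in the turnover of INSIG, Erlin1, which acts in sterol-regulated degradation at the endoplasmic reticulum, was lower in β-cells at 8 weeks (log2 change -0.72 ± 0.10, limma-voom, adjusted p = 0.000281). Insig2, the relative of Insig1, was at 60.2, 61.8 and 72.3 CPM in the 4-week β samples and 55.4, 59.8 and 65.3 CPM in the 8-week β samples, and the ages overlapped. Erlin1, Insig2 and, named after its values were seen, Erlin2 were higher in β- than in non-β-cells, by log2 differences of 1.99, 0.82 and 0.37 (limma-voom, adjusted p at most 0.00618), opposite in sign to Insig1.

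Among 18 genes of fatty acid elongation and desaturation, 7 were lower and 1 higher in β-cells at 8 weeks. Fads2, the desaturase that starts the synthesis of long polyunsaturated fatty acids, had the largest age change of the 60 tested genes in β-cells. It was at 185, 170 and 159 CPM in the 4-week β samples and at 29.9, 26.4 and 30.1 CPM in the 8-week β samples, a log2 change of -2.57 ± 0.10 (limma-voom, adjusted p = 9.56e-09). In non-β-cells it was at 179, 178 and 190 CPM and at 106, 113 and 112 CPM, a log2 change of -0.72 ± 0.09 (limma-voom, adjusted p = 0.000149), and the changes differed by -1.85 ± 0.14 (adjusted p = 1.07e-05). Fads1, the next desaturase, changed by -1.02 ± 0.10 in β-cells (limma-voom, adjusted p = 1.64e-05) and by -0.73 ± 0.10 in non-β-cells (adjusted p = 0.000182). Hacd1, a dehydratase of elongation, changed by -1.23 ± 0.29 in β-cells (limma-voom, adjusted p = 0.0117). Elovl2 rose in β-cells by 0.67 ± 0.13 (limma-voom, adjusted p = 0.00303) and fell in non-β-cells by 0.47 on the log2 scale (adjusted p = 0.0261), and the changes differed by 1.15 ± 0.18 (adjusted p = 0.00291).

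In sterol efflux and esterification, 3 of 13 tested genes were higher and 3 lower in β-cells at 8 weeks. Abca1, which exports cholesterol and is induced when sterols are high, was at 84.2, 93.4 and 31.8 CPM in the 4-week β samples and at 206, 219 and 226 CPM in the 8-week β samples. Its log2 change was 1.78 ± 0.33 (limma-voom, adjusted p = 0.00262) and 1.29 without both 4-week replicates 3. Scarb1, a lipoprotein receptor, and Tmem97, a sterol-regulated membrane protein, were lower, by log2 changes of -1.02 ± 0.12 and -0.94 ± 0.14 (limma-voom, adjusted p = 8.27e-05 and 0.000666). Soat1, which esterifies cholesterol, Vldlr, a lipoprotein receptor, and Stard3, which moves cholesterol out of late endosomes, were the other 3, with log2 changes of 0.81, 0.55 and -0.57 (limma-voom, adjusted p = 0.000992, 0.0136 and 0.0072). Soat2, a relative of Soat1 at 1.13 to 7.04 CPM in non-β samples, fell by 1.98 on the log2 scale in non-β-cells (limma-voom, adjusted p = 0.00468). Ch25h and Cyp27a1 did not pass the filter on low counts.

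Among 9 genes of glycerolipid assembly 3 were lower in β-cells at 8 weeks and none was higher. They were the phosphatidate phosphatases Lpin2 (log2 change -1.19 ± 0.22, limma-voom, adjusted p = 0.00223) and Lpin1 (-0.98 ± 0.17, adjusted p = 0.00174) and the acyltransferase Agpat2 (-0.67 ± 0.17, adjusted p = 0.0172). In the non-sterol branch, which makes dolichol, ubiquinone and prenyl groups from the product of Fdps, 1 of 13 genes was lower and 1 higher in β-cells. Fnta, a subunit of the prenyltransferases, changed by -0.67 ± 0.11 (limma-voom, adjusted p = 0.00118), and Pdss1, a low gene at 1.51 to 6.18 CPM in β samples, by 1.18 ± 0.37 (adjusted p = 0.0427), a call lost in 11 of 21 alternatives. None of the 13 was past the threshold in non-β-cells.

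Other cell types also moved with age, and their part in these differences was not tested. The marker lists, too, were chosen with earlier results of these data known, so the p-values given for markers are a description. In β samples all 5 α-cell markers were lower at 8 weeks. At 4 weeks the β minus non-β log2 difference was positive in 20 of the 30 genes and negative in 10. The share of all tested genes with either sign was not computed, and nothing is read from these counts. Any link of these levels to the α-cell markers was not tested. In non-β samples all 5 endothelial, all 5 mesenchymal and all 3 duct markers were higher at 8 weeks. The endothelial list summed to between 37.3 and 68.4 CPM at 4 weeks and between 260 and 711 CPM at 8 weeks, the mesenchymal list to between 76.6 and 238.5 and between 502 and 801 CPM, and the duct list to between 6.41 and 10.3 and between 29.95 and 53.1 CPM. The 5 acinar markers summed to between 47.6 and 94.9 CPM in β-cells at 4 weeks and 200.1 to 406 CPM at 8 weeks, and in non-β-cells to between 32.6 and 62.5 CPM and between 118 and 385 CPM. Sst, the somatostatin gene of δ-cells, averaged 5287 CPM in non-β samples at 4 weeks and 9670 CPM at 8 weeks (limma-voom, adjusted p = 0.0466). Ppy, the pancreatic polypeptide gene, averaged 227 CPM in β samples at 4 weeks and 63.6 CPM at 8 weeks (limma-voom, adjusted p = 0.000831). Of 6 leukocyte markers 4, among them Ptprc and Cd3e, did not pass the filter on low counts, and the list was carried by Cd68, at 47.5 to 50.1 CPM in β-cells at 4 weeks and 64.0 to 74.1 CPM at 8 weeks. The nuclear RNAs Malat1 and Neat1 were both higher in β-cells at 8 weeks, from 211 to 388 CPM in sum at 4 weeks to 789 to 1020 CPM, and mitochondrial transcripts made up 1.39% to 2.5% of the counts in every sample.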

How the data were processed

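Sorted islet cells of 12 samples in 4 groups of 3 were sequenced as strand-specific total RNA. The authors trimmed reads with fastp, quantified them with kallisto against Ensembl 98 and summed transcripts to genes with tximport, and they deposited estimated counts per gene for each sample (14% to 19.3% of the values in a sample are not whole numbers). The single-end reads were reversely stranded per the methods; the strand option given to kallisto and the tool versions are not given in the sources used here.

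Gene symbols were matched by identifier to GENCODE M21 (GRCm38), which named 51916 of 52962 identifiers. Genes with a CPM above 1 in at least 3 samples were kept (15598 genes). Counts were TMM-scaled with edgeR 4.0.16 and fitted with limma-voom (limma 3.58.1, R 4.3.3) to 4 group means without covariates, and p-values were adjusted by the Benjamini-Hochberg method over all tested genes, with a threshold of 0.05. Log2 CPM for the class means used a prior count of 2. The fit was tested on simulated data. In the heat map, log2 was taken of CPM plus 1.

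The 30 genes and the pathway and marker lists were chosen with earlier results of these data known. Of the 30, 12 were fixed to be given in full (Mvd, Fdps, Idi1, Acat2, Insig1, Stard4, Srebf2, Srebf1, Scd1, Fasn, Scd2 and Acss2), and the others are named after their values were seen. Of each pathway list, up to 3 genes with the largest change past the threshold were named per comparison. One gene of these lists is not reported here. Alternatives were other scalings and filters, DESeq2 1.42.0, edgeR's quasi-likelihood test on rounded counts, sample weights, other thresholds, a replicate block and left-out samples.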

Additional observations from a re-analysis of the deposited data

Results flagged for a closer look

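The age change in β-cells differed from that in non-β-cells for 19 of the 30 genes, by the interaction term of the limma-voom fit. The genes were chosen with this difference in view, so the values are a description. The β minus the non-β log2 age change was -2.49 for Mvd, -2.48 for Idi1, -2.33 for Hmgcs1, -2.11 for Insig1 and -1.91 for Fdps. It was -1.64 for Acat2, -1.42 for Msmo1, -1.35 for Stard4, -1.34 for Sc5d, -1.26 for Dhcr7 and -1.12 for Lss. It was -1.07 for Fasn, -1.02 for Scd1, -1.02 for Fdft1, -0.98 for Cyp51, -0.97 for Mvk, -0.82 for Pmvk, -0.70 for Nsdhl and -0.67 for Srebf2. In Hmgcs1, Idi1, Stard4, Sc5d and Pmvk the change was positive in non-β-cells and negative in β-cells. The groups of 3 samples were too small for a search for single outlying samples.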

How the results depend on the processing

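Of the 30 genes, 14 were lower and 7 higher in β- than in non-β-cells averaged over ages. These counts stayed within 1.5 times under the other scalings, filters, tests and left-out samples. With at least a 2-fold change also required they were 5 and 1, and the count of genes lower at 8 weeks in non-β-cells went from 13 to 1, as the requirement itself removes smaller differences. Leaving out 1 sample at a time gave 14 to 15 genes lower and 6 to 9 higher in β-cells, 24 to 25 genes lower at 8 weeks in β-cells, 8 to 15 in non-β-cells (8 without non-β replicate 3 at 8 weeks, and the cause was not tested) and 13 to 19 for the difference of the age changes. The median log2 age change then ranged from -1.70 to -1.52 for the sterol enzymes and from -1.03 to -0.83 for the fatty acid genes in β-cells, and from -0.52 to -0.43 and from -0.65 to -0.51 in non-β-cells. Without both 4-week replicates 3 the sterol median in β-cells was -1.52. No gene of the 30 changed direction while past the threshold. The tested calls that changed under some alternative were those of Fdps, Scd1, Ebp and Cyp51, which together gained a call 21 times and lost one 6 times over the alternatives.

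The replicate numbers are shared between groups, and the labels do not say whether equal numbers mark the same mice. Between the fractions, deviations from the group means of same-numbered samples had positive correlations. They were 0.0797, 0.133 and 0.306 at 4 weeks and 0.0177, 0.0487 and 0.00797 at 8 weeks. For samples with different numbers they were between -0.230 and 0.114 at 4 weeks and between -0.030 and 0.011 at 8 weeks. Not every sample correlated best with its own number. The main fit treated the samples as unpaired. With the replicate block 15 genes were lower and 9 higher in β-cells, 25 (β) and 13 (non-β) were lower at 8 weeks, and 20 differed in their age change. Scd1 was then called lower, and Fdps and Ebp higher, in β-cells. The block medians were -1.61 (β) and -0.43 (non-β) for the sterol enzymes and -0.89 and -0.57 for the fatty acid genes. Counting error weighs most in the lowest genes, such as Tm7sf2, which averaged 9.27 CPM in the 8-week β samples.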
